A study of Mus musculus with 5 samples.

Results

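The 4 genome windows that hold the mouse Hox clusters were examined bin by bin in fibroblasts. The windows were set by position alone on mouse build mm8, as all positions here: chromosome 6 from 51.7 to 52.6 Mb for Hoxa, chromosome 11 from 95.7 to 96.6 Mb for Hoxb, chromosome 15 from 102.2 to 103.1 Mb for Hoxc and chromosome 2 from 74 to 75 Mb for Hoxd. Every 2000-bp bin inside them was taken, 450 bins in each of the Hoxa, Hoxb and Hoxc windows and 500 in the Hoxd window, which makes 1850 of the 1315347 bins of the genome. The fibroblasts, called secondary, had Klf4, Sox2 and Oct4 under doxycycline control in their genome. By the labels' account they came from chimeric embryos at 13.5 days post coitum, made by injecting induced pluripotent cells into BDF2 blastocysts, and cells derived from the injected ones were selected over 48 hours in 10% serum with 2 µg/ml puromycin. The labels give no doxycycline treatment, so these are fibroblasts with the factors in the genome, and no induced counterpart is analysed here. The 5 libraries were 1 each for histone H3 trimethylated at lysine 27 (H3K27me3), RNA Pol II (RNA polymerase II) and the transcription factor E2F4, together with 2 made from unprecipitated whole cell extract (WCE), which served as the background.

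Hox genes encode homeodomain transcription factors that set position along the body axis, and cells keep a pattern of active and silent Hox genes that reflects where in the body they came from. The silent stretches are classic targets of the Polycomb group proteins, whose methyltransferase complex lays down H3K27me3 over broad domains, whereas RNA Pol II occupies genes being transcribed. No RNA was measured here, so a called RNA Pol II bin is not shown to be transcribed. The RNA Pol II antibody, 8WG16, binds the C-terminal domain of its largest subunit. E2F4 belongs to the E2F proteins and is known mainly as a repressor of cell cycle genes. In the RefSeq gene table of assembly GRCm38.p6 the clusters hold 39 Hox genes, 11 in Hoxa, 10 in Hoxb, 9 in Hoxc and 9 in Hoxd. Because its assembly is not mm8, no gene was placed on a bin, and the stretches below are named by position only.

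After 1 read was kept per position and strand, the libraries held 9483163 autosomal reads for H3K27me3, 3111606 for RNA Pol II and 1971874 for E2F4. The WCE libraries held 417799 (replicate 1) and 11226593 (replicate 2). The background is therefore almost entirely WCE replicate 2, and replicate 1 held 0 reads in the median bin of every window. Because each antibody has 1 library, replicate spread is unknown, and each p-value compares libraries, not conditions. The reads were amplified and carry no molecular identifiers, so all intervals are 95% intervals that cover counting error only. Ratios to WCE below are scaled by autosomal totals. If libraries were scaled on background bins in place of totals, log2 ratios would shift by 0.38 for H3K27me3, 1.65 for RNA Pol II and -0.13 for E2F4, so ratios near 1 are read against other bins and not against 1.

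The windows, which extend beyond the clusters, differed widely in the share of their bins that was called. H3K27me3 bins were called at an adjusted p under 0.01 (one-sided exact binomial test, Benjamini-Hochberg over the genome) and a ratio to WCE of at least 3, and 318 of the 1825 tested bins passed, 17.4% against 2.23% of tested bins in the genome. The other 25 bins held no H3K27me3 read. By window, 20 bins were called for Hoxa (4.49% of those tested), 138 for Hoxb (30.7%), 126 for Hoxc (28.2%) and 34 for Hoxd (7.02%). For RNA Pol II 104 of 1189 tested bins passed, 8.75% against a genome background of 2.97%, with 30 bins for Hoxa (9.55%), 35 for Hoxb (11.6%), 30 for Hoxc (9.52%) and 9 for Hoxd (3.50%). For E2F4 28 of 1383 tested bins passed, 2.02% against 0.789% in the genome, with 7 bins for Hoxa (1.94%), 4 for Hoxb (1.16%), 14 for Hoxc (4.12%) and 3 for Hoxd (0.888%). For H3K27me3 another 7, 16, 22 and 4 bins of Hoxa, Hoxb, Hoxc and Hoxd passed the p-value but not the ratio of 3. The Hoxd shares for RNA Pol II and E2F4 and the Hoxb share for E2F4 were near the genome background.

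**Figure D1:**
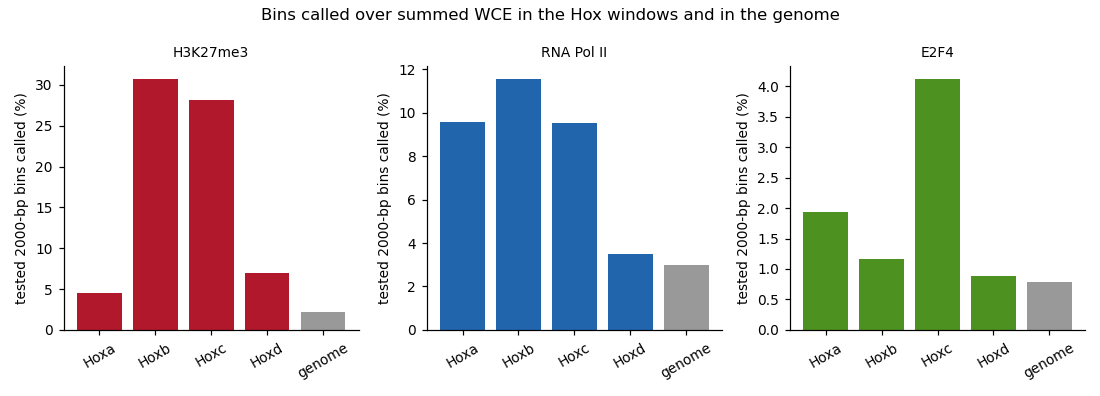
Percentage of tested 2000-bp bins called over summed WCE (y axis) in each Hox window and in the whole genome (grey), for H3K27me3, RNA Pol II and E2F4, with 1 library per antibody and so no error bar. H3K27me3 stands at 30.7% in Hoxb and 28.2% in Hoxc against 2.23% in the genome, and the y axes differ between panels.

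Read densities, which use no WCE, ranked the windows in the same order for H3K27me3. In reads per kb per 10000000 distinct autosomal reads, H3K27me3 stood at 20.1 in Hoxb, 18.2 in Hoxc, 8.49 in Hoxd and 8.40 in Hoxa, against 4.06 over all autosomal bins. RNA Pol II density was 16.6 in Hoxc, 13.0 in Hoxa, 12.2 in Hoxb and 3.62 in Hoxd. E2F4 density was 9.78 in Hoxc, 6.82 in Hoxb, 6.73 in Hoxa and 4.47 in Hoxd. The WCE libraries were themselves denser here than over the autosomes, at 5.18 in Hoxd and between 7.21 and 7.63 in the other windows. Over whole windows the H3K27me3 ratio to WCE was 2.63 in Hoxb (2.56 to 2.70), 2.41 in Hoxc (2.34 to 2.48), 1.64 in Hoxd (1.59 to 1.70) and 1.16 in Hoxa (1.13 to 1.20). The RNA Pol II ratio of Hoxd was the lowest of the windows at 0.698 (0.655 to 0.744), and that of Hoxc the highest at 2.20 (2.12 to 2.29).

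**Figure D2:**
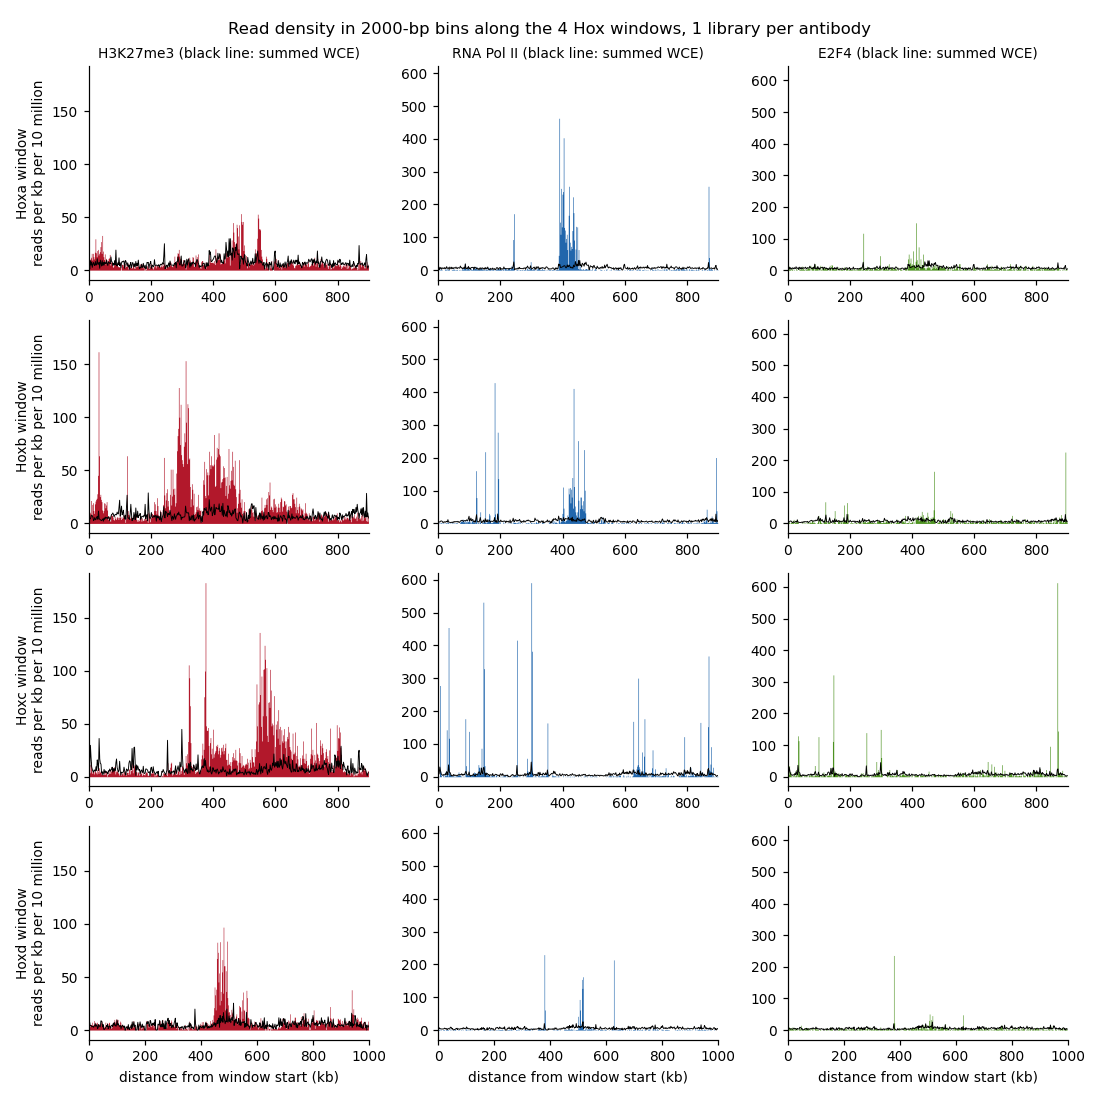
Read density (y axis, reads per kb per 10000000 distinct autosomal reads) in 2000-bp bins against distance from the start of each window (x axis, kb), for H3K27me3 (red), RNA Pol II (blue) and E2F4 (green), with summed WCE as a black line. Broad H3K27me3 blocks are seen in Hoxb, Hoxc and Hoxd. The longest run of RNA Pol II bins lies in Hoxa, and no bin of that run was called for H3K27me3.

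In the Hoxa window RNA Pol II formed the main block, and the called H3K27me3 bins lay in short regions away from it. The longest RNA Pol II segment of the 4 windows ran for 50 kb, chr6:52088001-52138000, and it ranked 2 by length among the 11283 RNA Pol II regions of the genome, of which the longest was 78 kb. It held 2436 RNA Pol II reads against 631 WCE reads, a ratio of 14.4 (13.2 to 15.8). The same stretch held 447 H3K27me3 reads, a ratio of 0.870 (0.769 to 0.983), and no bin in it was called for H3K27me3. The low H3K27me3 ratio goes with a denser background. Over the 30 RNA Pol II bins of this window H3K27me3 stood at 9.56 reads per kb per 10000000 against 8.40 over the window, and WCE at 12.2 against 7.21. The length of the block depended on the calls, at 28 kb when joined across 0 bins, 26 kb at a ratio of at least 5 and 20 kb against WCE replicate 1 alone. It was longer at 66 kb on background bins and against a uniform background, and 64 kb at a ratio of at least 2. With bins 1000 bp later it was 62 kb, and joined across up to 5 bins 60 kb.

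The 3 strongest bins were spread along the block. The bin chr6:52102001-52104000 held 251 RNA Pol II, 17 H3K27me3 and 24 E2F4 reads against 29 of WCE (RNA Pol II ratio 32.4, 22.0 to 49.4, adjusted p = 3.37e-131 by the exact binomial test). At the lower end chr6:52088001-52090000 held 288 RNA Pol II, 21 H3K27me3 and 20 E2F4 reads against 35. Near the upper end chr6:52132001-52134000 held 139 RNA Pol II, 18 H3K27me3 and 7 E2F4 reads against 14. In each of these bins H3K27me3 reads were far fewer than RNA Pol II reads, and E2F4 was called in the former pair but not in the last. Within the bin at 52102001 the RNA Pol II reads lay mostly at its start, with 158, 74, 12 and 7 in successive 500-bp pieces.

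A short RNA Pol II segment of 6 kb followed at chr6:52142001-52148000 with a ratio of 5.63 (4.43 to 7.17). The 50 kb from 52138001 to 52188000, between the block and the nearest H3K27me3 region of at least 10 kb, were at 1.35 for H3K27me3 (1.23 to 1.47) and 1.21 for RNA Pol II (1.06 to 1.37). Beyond them H3K27me3 was called over 10 kb at chr6:52188001-52198000, with 392 reads against 121 of WCE and a ratio of 3.98 (3.24 to 4.92), and over 8 kb at chr6:52244001-52252000 with a ratio of 4.69 (3.66 to 6.05). These regions held 4 and 1 RNA Pol II reads. Called over WCE, the order along the chromosome was therefore an RNA Pol II block and then short H3K27me3 regions. In most of the stretch between them neither was called. Against a uniform background in place of WCE, the longest H3K27me3 region of the window ran for 30 kb from 52154001 to 52184000, inside that stretch. The gap in H3K27me3 calls therefore depended on the background used.

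The longest H3K27me3 region of the Hoxa window lay elsewhere, 342 kb below the RNA Pol II block. It ran for 12 kb at chr6:51734001-51746000 with 252 reads against 81 of WCE, a ratio of 3.82 (2.96 to 4.97), and shared rank 846 with other regions of its length among 8968 in the genome. Its edges were shallow, since the 10 kb inside and outside the lower edge held 218 and 153 H3K27me3 reads (1.42, 1.15 to 1.76) and those at the upper edge 219 and 104 (2.11, 1.66 to 2.69). The longest region was another one under several settings. It started at 52183001 with bins 1000 bp later, 52240001 at a ratio of at least 2 and 52242001 when thinned to the E2F4 depth. With no joining it started at 52188001, and against a uniform background at 52154001. The remaining RNA Pol II segments of the window were 4 kb each, at chr6:51940001-51944000 with a ratio of 6.94 and chr6:52568001-52572000 with a ratio of 9.65.

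In the Hoxb window H3K27me3 covered most of the middle, and RNA Pol II was called inside its longest domain. That domain ran for 108 kb at chr11:96076001-96184000 and ranked 6 by length in the genome. It held 4811 H3K27me3 reads against 1399 of WCE, a ratio of 4.22 (3.98 to 4.48), and 1801 RNA Pol II reads, a ratio of 4.82 (4.49 to 5.17). Called H3K27me3 bins also made up a 76 kb region at chr11:95962001-96038000, rank 16, with 4338 reads against 623 of WCE (8.55, 7.86 to 9.31) and only 30 RNA Pol II reads (0.180, 0.121 to 0.260). The lower region thus had the higher H3K27me3 ratio of the pair and the lower RNA Pol II ratio, by non-overlapping intervals. By read density, which uses no WCE, H3K27me3 stood at 60.2 in the 76 kb region and 47.0 in the 108 kb domain. The pair was closer by density than by ratio, since WCE reads were denser in the 108 kb domain.

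The 2 regions were separated by 38 kb, from 96038001 to 96076000, in which the H3K27me3 ratio was 2.80 (2.44 to 3.21), 3 bins were called and RNA Pol II held 21 reads. The edges of the 108 kb domain depended on how bins were called and joined. The 10 kb inside and outside the lower edge held 415 and 355 reads (1.17, 1.01 to 1.35), and those at the upper edge 252 and 190 (1.33, 1.09 to 1.61). WCE replicate 2 held 117 and 133 reads at the lower edge and 57 and 80 at the upper one, so the background did not fall outside. Between the last bin inside and the next one outside, H3K27me3 reads went from 98 to 46 at the lower edge and from 114 to 61 at the upper. When called bins were joined across up to 5 bins, or called against a uniform background, the edges moved outward and the contrasts over 10 kb were 4.38 (3.43 to 5.65) and 2.53 (2.03 to 3.18). The upper contrast was also 2.53 on background bins, 2.05 with repeats of a position kept and 2.11 at a ratio of at least 2. With a ratio of at least 5, thinning to the E2F4 depth, no joining or bins 1000 bp later the longest domain lay in the 76 kb region and measured 50, 46, 60 and 78 kb.

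RNA Pol II occupied 3 segments inside the 108 kb domain. They were 4 kb at chr11:96098001-96102000 (ratio 6.86, 4.77 to 9.97), 24 kb at chr11:96118001-96142000 (9.76, 8.57 to 11.1) and 26 kb at chr11:96148001-96174000 (8.24, 7.21 to 9.45), the last pair ranking 13 and 11 by length in the genome. The 24 kb segment held 842 RNA Pol II reads, 1024 H3K27me3 reads and 87 E2F4 reads against 323 of WCE. The 26 kb segment held 694 RNA Pol II, 1108 H3K27me3 and 153 E2F4 reads against 315. In the 6 kb between them 49 RNA Pol II and 183 H3K27me3 reads were found against 79 of WCE.

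Inside the domain, H3K27me3 was similar in bins called for RNA Pol II and in the other bins. The domain joins bins called for H3K27me3 with at most 1 uncalled bin between them, so both sets were selected for the mark. Their likeness is therefore largely set by that definition, and the values below are descriptions. The 26 RNA Pol II bins had an H3K27me3 ratio of 4.25 (3.90 to 4.64), and 22 of them were called for H3K27me3. The other 28 bins had a ratio of 4.20 (3.87 to 4.56), and 24 of them were called. In density the values were 46.2 and 47.7 reads per kb per 10000000 for H3K27me3, while RNA Pol II density was 99.6 in the former bins and 10.8 in the latter. H3K27me3 reads per bin ran from 48 to 134 with a median of 81 in the RNA Pol II bins, and from 20 to 162 with a median of 95 in the others. These ranges overlapped almost throughout. Libraries of many cells cannot tell apart both marks on the same chromosome copy and a mixture of cells or copies that carry 1 mark each.

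The strongest of these bins, chr11:96134001-96136000, held 256 RNA Pol II, 100 H3K27me3 and 11 E2F4 reads against 29 of WCE. Its RNA Pol II ratio was 33.0 (22.5 to 50.3; adjusted p = 2.58e-134, exact binomial test), and its H3K27me3 ratio with the pseudocount was 4.13 (adjusted p = 8.78e-12, the same test). In its successive 500-bp pieces RNA Pol II held 58, 75, 68 and 55 reads and H3K27me3 held 37, 17, 24 and 22, so both were spread along the bin. The bin chr11:96148001-96150000 held 157 RNA Pol II and 134 H3K27me3 reads against 35 of WCE. The bin chr11:96160001-96162000 held 35 RNA Pol II and 129 H3K27me3 reads against 19 of WCE, the highest H3K27me3 ratio among the bins called for both here, 7.98 with the pseudocount.

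**Figure D3:**
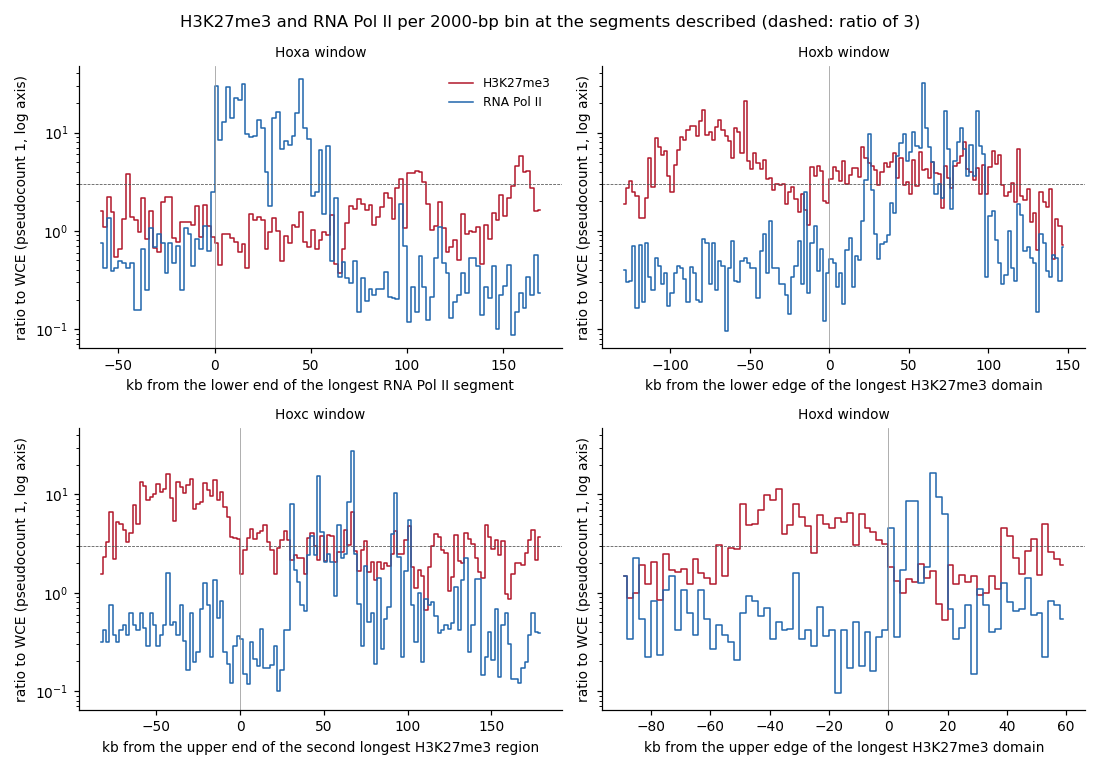
Ratio to WCE per 2000-bp bin (y axis, log scale, pseudocount of 1 read) for H3K27me3 (red) and RNA Pol II (blue) against distance in kb from the feature named under each panel, with the ratio of 3 dashed. In Hoxa the RNA Pol II block has H3K27me3 ratios below the line, in Hoxb both lines run above 3 over the same bins, in Hoxc short RNA Pol II peaks stand among bins with H3K27me3 near the line, and in Hoxd RNA Pol II rises where H3K27me3 falls.

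Below the 76 kb region the Hoxb window held a 30 kb H3K27me3 region at chr11:95712001-95742000, with 990 reads against 164 of WCE (7.41, 6.28 to 8.80) and 11 RNA Pol II reads, and a 12 kb one at chr11:95746001-95758000 (3.76). Its highest bin, chr11:95730001-95732000, held 307 H3K27me3 and 3 RNA Pol II reads against 27 of WCE, a ratio of 14.0 (9.41 to 21.5). The highest ratio of the window was in the 76 kb region at chr11:96022001-96024000, with 117 H3K27me3 and 0 RNA Pol II reads against 6 of WCE (23.9, 10.7 to 66.6). Between 95758001 and 95962000 H3K27me3 was at 1.17 (1.10 to 1.25), and this stretch held 7 called RNA Pol II bins and no bin called for both. The strongest of them, chr11:95880001-95882000, held 267 RNA Pol II and 24 H3K27me3 reads against 42 of WCE. Above the longest domain, 4 further H3K27me3 regions of 10 to 18 kb had ratios from 3.53 to 3.88, and none held more than 5 RNA Pol II reads.

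In the Hoxc window H3K27me3 formed a pair of long regions with almost no RNA Pol II, followed by a stretch where short RNA Pol II segments lay among short H3K27me3 regions. The longest domain ran for 82 kb at chr15:102570001-102652000, rank 13, with 2569 H3K27me3 reads against 572 of WCE (5.51, 5.04 to 6.05) and 22 RNA Pol II reads (0.144, 0.0895 to 0.220). The next ran for 64 kb at chr15:102732001-102796000, rank 27, with 4073 H3K27me3 reads against 539 (9.28, 8.48 to 10.2) and 35 RNA Pol II reads (0.243, 0.167 to 0.342). Above the 82 kb domain, the 64 kb from 102652001 to 102716000, which end at a further 12 kb region, had an H3K27me3 ratio of 3.27 (2.88 to 3.73) with 9 bins called and 17 RNA Pol II reads. From 102570001 to 102796000 the regions of at least 10 kb and the stretches between them, called bins included, all had H3K27me3 ratios above 3. In the 64 kb stretch 9 of 32 bins were called, and these lay in shorter regions. The ratio of its uncalled bins alone was not computed, so an unbroken domain is not shown.

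The 82 kb domain had a steeper contrast at its lower edge than at its upper one. At the lower edge the 10 kb inside and outside held 853 and 212 H3K27me3 reads (4.02, 3.46 to 4.70), where WCE replicate 2 held 139 and 101. At the upper edge they held 139 and 120 (1.16, 0.901 to 1.49), and WCE replicate 2 held 32 and 51 (0.627, 0.390 to 0.995). With no shift of the reads the domain was 78 kb long and its upper contrast 1.89 (1.47 to 2.44). Joined across up to 5 bins the longest region was another one, of 166 kb at chr15:102706001-102872000, with contrasts of 1.06 (0.802 to 1.39) at its lower and 2.06 (1.64 to 2.61) at its upper edge. It was also another region, starting at 102717001, 102732001 or 102738001, with bins 1000 bp later, a ratio of at least 2 or 5, an adjusted p under 0.0001, thinning, no joining or a uniform background. Against WCE replicate 1 alone the longest region of this window was 2 kb. The highest bin of this window by H3K27me3 ratio lay below the domain at chr15:102524001-102526000, with 127 H3K27me3 and 1 RNA Pol II reads against 8 of WCE (19.5, 9.60 to 46.1). In the 64 kb region chr15:102766001-102768000 held 210 H3K27me3 and 2 RNA Pol II reads against 17 (15.2, 9.25 to 26.5), and the neighbouring bin at 102764001 held 235 and 0 against 22. Further regions of 12 to 16 kb had ratios from 3.11 to 4.59. The one of 12 kb at chr15:102716001-102728000 held 0 RNA Pol II reads against 50 of WCE, which limits its RNA Pol II ratio to at most 0.287.

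RNA Pol II in the Hoxc window was split into 21 segments of at most 8 kb. The longest, chr15:102838001-102846000, lay inside the 16 kb H3K27me3 region at chr15:102836001-102852000. It held 249 RNA Pol II and 292 H3K27me3 reads against 118 of WCE, ratios of 7.90 (6.32 to 9.92) and 3.04 (2.45 to 3.80). Of the 30 RNA Pol II bins of this window 6 were also called for H3K27me3, and all 6 lay between 102838001 and 102898000. The strongest, chr15:102862001-102864000, held 110 RNA Pol II, 80 H3K27me3 and 13 E2F4 reads against 14 of WCE, and it was called for all 3 antibodies. Its RNA Pol II ratio was 29.4 (16.8 to 55.5; adjusted p = 2.13e-56, exact binomial test). In its 500-bp pieces RNA Pol II ran 38, 47, 16 and 9 while H3K27me3 ran 16, 14, 24 and 26, so the RNA Pol II reads lay in the lower part of the bin and H3K27me3 was somewhat more frequent in the upper. The bin chr15:102888001-102890000, with 51 RNA Pol II, 64 H3K27me3 and 15 E2F4 reads against 18, was also called for all 3.

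Outside the stretch from 102826001 to 102898000 the RNA Pol II segments of Hoxc had little H3K27me3. The 11 segments from 102204001 to 102552000 had H3K27me3 ratios from 0.181 to 0.675, and the 4 from 102990001 to 103078000 ratios from 0.368 to 0.486. The bin chr15:102344001-102346000 held 331 RNA Pol II, 21 H3K27me3 and 44 E2F4 reads against 64 of WCE (19.4, 14.8 to 25.7). The 6 segments between 102826001 and 102898000 had H3K27me3 ratios from 2.16 to 5.16, all above those of the other 15. Since each ratio divides by the same WCE reads as the RNA Pol II calls, H3K27me3 densities are compared below as well.

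In the Hoxd window the longest of 7 H3K27me3 regions, a domain of 50 kb, ended where RNA Pol II began. The domain ran along chr2:74448001-74498000, rank 58 shared with regions of its length, and held 2369 H3K27me3 reads against 514 of WCE (5.66, 5.14 to 6.24) and 33 RNA Pol II reads (0.240, 0.164 to 0.342). Its highest bin by ratio, chr2:74460001-74462000, held 139 H3K27me3 and 1 RNA Pol II reads against 14 of WCE (12.2, 7.03 to 22.9). RNA Pol II was called in the very next bin past the upper edge, chr2:74498001-74500000, with 26 reads against 21 of WCE (4.63, 2.51 to 8.66). Segments at chr2:74504001-74508000 (8.76, 6.02 to 13.0) and chr2:74512001-74518000 (9.31, 7.44 to 11.7) followed.

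H3K27me3 fell across both edges of the Hoxd domain as called here. Across the upper edge the 10 kb inside and outside held 437 and 125 H3K27me3 reads (3.50, 2.86 to 4.30), 4 and 132 RNA Pol II reads (0.0303, 0.00814 to 0.0794) and 16 and 35 E2F4 reads (0.457, 0.236 to 0.848). WCE replicate 2 held 117 and 108 there, an inside over outside ratio of 1.08 (0.827 to 1.42). The mark and RNA Pol II therefore changed in opposite directions where the background did not change beyond its counting error. Across the lower edge H3K27me3 held 377 and 110 reads (3.43, 2.76 to 4.28), and RNA Pol II held 8 and 0. At a ratio of at least 5 the domain was 16 kb long with contrasts of 1.39 and 1.53, and joined across 0 bins it was 24 kb long with 0.863 at its upper edge. Over the 3 RNA Pol II segments past the edge the H3K27me3 ratio was 1.87 (1.05 to 3.41), 1.35 (0.863 to 2.11) and 0.808 (0.593 to 1.09), all under that of the domain, against 1.26 (1.22 to 1.31) in the whole window outside the domain. Beyond these segments H3K27me3 was called again, over 4 kb at chr2:74536001-74540000 with a ratio of 4.40 (2.77 to 7.24). It was also called at chr2:74546001-74552000 (3.44, 2.48 to 4.84) and chr2:74564001-74566000 (7.12, 3.61 to 15.6). Farther up lay a 10 kb region at chr2:74936001-74946000 (3.13, 2.39 to 4.12) and regions of 2 kb at 74860001 and 74972001. The remaining RNA Pol II segments stood alone at chr2:74378001-74382000 (11.3) and chr2:74626001-74628000 (18.4), with H3K27me3 ratios of 0.553 and 0.591.

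Set against the longest domain of each window, RNA Pol II was lower inside than in the rest in 3 windows and higher in Hoxb. The ratio of inside to rest, each relative to WCE, was 0.0759 in Hoxa (0.0240 to 0.240), 0.0609 in Hoxc (0.0397 to 0.0934), 0.324 in Hoxd (0.227 to 0.464) and 5.27 in Hoxb (4.83 to 5.76). The rest includes the called RNA Pol II segments, so a low value does not place a domain below sequence without the mark. Each window was also cut into 9 equal steps, or 10 in Hoxd. Hoxd steps with no H3K27me3 bin called had RNA Pol II ratios of 0.234, 0.179, 0.198, 2.06, 1.24 and 0.262, against 0.240 in the domain. Such steps had 0.706, 1.47, 0.185, 0.285 and 1.16 in Hoxa, against 0.139, and 3.59 and 3.45 in Hoxc, against 0.144. The Hoxb value turned with the domain chosen. With bins that start 1000 bp later, a ratio of at least 5, thinning to the E2F4 depth or no joining, the longest domain was not the 108 kb one, and the value was 0.114, 0.122, 0.157 and 0.122. The Hoxc value rose to 0.808 at a ratio of at least 2, 0.718 joined across up to 5 bins and 0.781 against a uniform background, and the Hoxa value to 0.517 (0.0578 to 4.63) at a ratio of at least 5. The Hoxd value was 2.47 when bins were called against a uniform background, which gave a domain of 68 kb, and 0.574 by density with no WCE. E2F4 was at 0.508 in Hoxc (0.391 to 0.658) and 1.56 in Hoxb (1.35 to 1.80), and the intervals include 1 in Hoxa (0.700, 0.351 to 1.40) and Hoxd (0.883, 0.677 to 1.15). Other settings gave 0.403 (0.229 to 0.708) in Hoxa joined across up to 5 bins, 0.506 on background bins and 0.515 against a uniform background, and in Hoxd 1.56 (1.20 to 2.01) by density with no WCE and 1.24 (1.01 to 1.52) against a uniform background. The Hoxb E2F4 value turned under the same 4 settings, to 0.699 to 0.785.

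Among the RNA Pol II bins, H3K27me3 calls were found in Hoxb and Hoxc and not in Hoxa or Hoxd. H3K27me3 was called in 22 of 35 RNA Pol II bins in Hoxb, 62.9% (44.9 to 78.5), and in 6 of 30 in Hoxc, 20% (7.71 to 38.6). It was called in 0 of 30 in Hoxa (at most 11.6%) and 0 of 9 in Hoxd (at most 33.6%). In the RNA Pol II bins of the rest of the genome the share was 1.34% (1.17 to 1.52), so Hoxb and Hoxc lay above it, and the Hoxa and Hoxd intervals include it. Of all tested bins, H3K27me3 was called in 30.7% in Hoxb, 28.2% in Hoxc, 4.49% in Hoxa and 7.02% in Hoxd. Against these shares only the Hoxb interval lies above that of its own window, and the Hoxc, Hoxa and Hoxd intervals include theirs. Neighbouring bins are not independent, and the Hoxb bins come from 3 adjoining segments. These 28 bins make up 10.98% of the 255 bins of the genome called for both, in windows that hold 0.141% of its bins. Against a uniform background 7 bins were called for both in Hoxa and 4 in Hoxd.

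Summed over the RNA Pol II bins, the H3K27me3 ratio was 3.04 in Hoxb (2.82 to 3.28), 0.905 in Hoxc (0.831 to 0.986), 0.897 in Hoxd (0.740 to 1.09) and 0.781 in Hoxa (0.700 to 0.871), against 0.572 in the RNA Pol II bins of the rest of the genome. The intervals of Hoxc, Hoxd and Hoxa overlapped. On background bins the same values were 3.97, 1.18, 1.17 and 1.02 against 0.747. That scaling multiplies every H3K27me3 ratio by the same 1.31, so the order could not change, but the side of 1 did in Hoxc, Hoxd and Hoxa. In reads per kb per 10000000, H3K27me3 stood at 36.5 in Hoxb, 16.4 in Hoxc, 11.1 in Hoxd and 9.56 in Hoxa, against 9.99 elsewhere. By density, which uses no WCE, Hoxa was thus close to the other RNA Pol II bins of the genome and Hoxb was highest. Per bin the median ratio was 3.49 in Hoxb, 0.814 in Hoxa, 0.767 in Hoxd and 0.477 in Hoxc, where 6 bins had both calls.

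**Figure D4:**
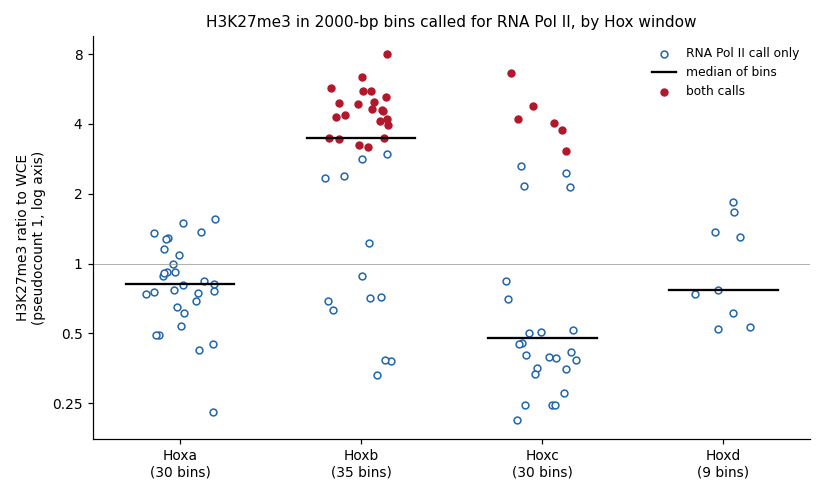
H3K27me3 ratio to WCE (y axis, log scale, pseudocount of 1 read) in each 2000-bp bin called for RNA Pol II, by Hox window (x axis), with bins also called for H3K27me3 filled in red and the median of bins as a black line. Of the Hoxb bins 22 of 35 are filled and of the Hoxc bins 6 of 30, while none is filled in Hoxa or Hoxd, where the highest ratios are 1.56 and 1.84.

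E2F4 lay in narrow regions that were all RNA Pol II bins. All 28 E2F4 bins of the windows were also called for RNA Pol II, against 87.1% (86.2 to 87.9) of the E2F4 bins in the rest of the genome. Of these bins 2, both in Hoxc and described above, were also called for H3K27me3. They made up 14.3% (1.78 to 42.8) of the 14 Hoxc E2F4 bins, against 1.83% of E2F4 bins in the rest of the genome. That interval includes the genome share and the 28.2% of all tested Hoxc bins. E2F4 was called in 23.3% of the RNA Pol II bins of Hoxa (9.93 to 42.3), 11.4% in Hoxb (3.20 to 26.7), 46.7% in Hoxc (28.3 to 65.7) and 33.3% in Hoxd (7.49 to 70.1), against 30.4% elsewhere. Of these intervals only that of Hoxb lies below the genome value. No E2F4 region of the windows was longer than 4 kb.

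The strongest E2F4 bin of the windows was chr15:103066001-103068000 near the end of the Hoxc window, with 242 E2F4, 95 RNA Pol II and 18 H3K27me3 reads against 51 of WCE, a ratio of 28.0 (20.6 to 38.7; adjusted p = 4.10e-146, exact binomial test). Its E2F4 reads fell in the last pair of 500-bp pieces, with 128 and 114 against 0 and 0 in the others. In Hoxa the strongest bin lay inside the 50 kb RNA Pol II block at chr6:52112001-52114000, with 59 E2F4 and 68 RNA Pol II reads against 22 of WCE (15.8, 9.56 to 27.1). Of its E2F4 reads 56 lay in the last 500 bp, whereas the RNA Pol II reads ran 13, 11, 32 and 12 over the pieces, so their densest pieces differed. In Hoxb it lay inside the 108 kb H3K27me3 domain at chr11:96170001-96172000, with 65 E2F4, 63 RNA Pol II and 62 H3K27me3 reads against 32 (12.0, 7.74 to 18.9). Here 62 of the E2F4 reads and 40 of the RNA Pol II reads shared 1 piece, and the H3K27me3 ratio with the pseudocount, 2.34, missed the call. In Hoxd it was chr2:74378001-74380000, outside the domain, with 93 E2F4, 143 RNA Pol II and 19 H3K27me3 reads against 46 (11.9, 8.30 to 17.4).

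Across the bins of a window, read counts of RNA Pol II and E2F4 had a Pearson's r of 0.572 in Hoxa, 0.566 in Hoxb, 0.572 in Hoxc and 0.739 in Hoxd over 450, 450, 450 and 500 bins. Spearman's rho was 0.337, 0.387, 0.368 and 0.192, so Hoxd was the highest by r and the lowest by rank. Those of H3K27me3 and RNA Pol II had r between -0.0436 in Hoxc and 0.166 in Hoxb. Bins of a window are neighbours from the same libraries and every count also followed WCE, for RNA Pol II with r between 0.345 and 0.700. These values are descriptions of the bins and carry no test.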

How the data were processed

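Per the labels' protocols, chromatin of secondary fibroblasts was sonicated to a mean of 500 bp, immunoprecipitated, amplified for 18 cycles and size-selected at 150 to 350 bp before Solexa sequencing. The deposited files list signed read positions (an other unit, not a count or a signal per region), placed on mouse build mm8 with bowtie, per the file headers. Bowtie is named in the submitters' processing notes without a version. Reads of the first section of each list, read here as reads with 1 placement, were used, 1 per position and strand. Their 5′ ends, from the alignment seed lengths of 26 or 36 bp, were moved 60 bp downstream and counted in 2000-bp bins with Python 3.11.15, numpy 2.4.6 and scipy 1.17.1.

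Every bin of chromosomes 1 to 19, X and Y was compared with the 2 summed WCE libraries, scaled by autosomal totals, by an exact conditional binomial test (one-sided). Benjamini-Hochberg adjustment ran over all bins with at least 1 antibody read. A call needed an adjusted p under 0.01 and, with 1 read added as a pseudocount, a ratio of 3 or more. Called bins were joined across at most 1 uncalled bin, and the domain of a window is its longest joined H3K27me3 region. Intervals are exact (Clopper-Pearson) at 95%. Named bins are the 3 per window and antibody whose ratio has the highest lower limit. The caller was checked on simulated data. The windows, rules and settings were chosen with earlier results of these data known. No mm8 genome or gene annotation was used, so no sequence is printed and no gene is placed on a bin.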

Additional observations from a re-analysis of the deposited data

Results flagged for a closer look

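Reads that the deposited lists give in their second section, read here as reads placed at 2 positions, were left out of every comparison above. Tested on their own against the same section of the WCE libraries, they gave 3 called RNA Pol II bins in the Hoxa window, 3 in the Hoxb window, 2 in the Hoxc window and 1 in the Hoxd window. Of these bins, only the 1 in the Hoxd window was not already called from reads with 1 placement. In the whole genome 2741 RNA Pol II bins were called from the second section, and the windows hold 0.141% of the bins of the genome. No H3K27me3 or E2F4 bin of the windows was called from that section by the exact binomial test, in which 907 and 261 bins of the genome were called.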

How the results depend on the processing

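The background rests on WCE replicate 2. Leaving out either WCE replicate in turn gave 1 to 312 H3K27me3 bins, 48 to 103 RNA Pol II bins, 5 to 28 E2F4 bins, 31 to 39 RNA Pol II segments and a summed domain length of 2 to 252 kb. In each case the low value is that of the shallow replicate 1 alone, against which no H3K27me3 region was called in Hoxa, Hoxb or Hoxd. The H3K27me3 ratio in RNA Pol II bins then ranged from 0.763 to 2.92 in Hoxa, 2.94 to 3.93 in Hoxb and 0.881 to 2.17 in Hoxc. Without WCE replicate 1, RNA Pol II inside the domain over the rest was 0.0740, 5.22, 0.0616 and 0.321 in Hoxa, Hoxb, Hoxc and Hoxd, and E2F4 was 0.683, 1.54, 0.513 and 0.875. No paired analysis was possible because each antibody has 1 library and only WCE has 2.

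Counts moved with the threshold, depth and scaling. A ratio of at least 5 gave 132 H3K27me3 bins, 13 E2F4 bins and 126 kb of domains. Thinning to the E2F4 depth gave 170 H3K27me3 bins and 152 kb, and joining across 0 bins gave 158 kb. Scaling on background bins gave 167 RNA Pol II bins, a uniform background, chosen after the data were seen, gave 68 E2F4 bins, and joining across up to 5 bins gave 25 RNA Pol II segments.

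The H3K27me3 ratio in RNA Pol II bins on background bins was 1.02 in Hoxa, 3.68 in Hoxb, 1.40 in Hoxc and 1.22 in Hoxd, over the bins called under that scaling. It was 0.891 in Hoxa when thinned, and in Hoxc 0.744 at a ratio of at least 5, 0.751 at an adjusted p under 0.0001 and 1.03 against a uniform background.

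RNA Pol II inside the domain over the rest was 0.517 in Hoxa at a ratio of at least 5. In Hoxb it was 0.114 with bins 1000 bp later, 0.122 at a ratio of at least 5, 0.157 when thinned and 0.122 when joined across 0 bins. It was 4.54 when joined across up to 5 bins and 4.54 against a uniform background, and 8.21 by density alone. In Hoxc it was 0.808 and 0.112 at ratios of at least 2 and 5, 0.104 at an adjusted p under 0.0001, 0.108 when thinned, 0.104 and 0.718 when joined across 0 and up to 5 bins, and 0.781 against a uniform background. In Hoxd it was 0.495 when joined across 0 bins, 2.47 against a uniform background and 0.574 by density alone.

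E2F4 inside over the rest was 0 in Hoxa at a ratio of at least 5. In Hoxb it was 0.717 with bins 1000 bp later, 0.770 at a ratio of at least 5, 0.785 when thinned, 0.699 when joined across 0 bins and 2.43 by density. In Hoxd it was 1.24 against a uniform background and 1.56 by density. The H3K27me3 step at the lower Hoxa edge turned to 0.949 on background bins and 0.886 with bins 1000 bp later, that at the upper Hoxa edge to 0.740 at a ratio of at least 5, and that at the upper Hoxd edge to 0.863 when joined across 0 bins. Where the longest domain became another region, the change follows from that choice; the cause of the other changes was not tested. Of 793 values over 57 results and 16 alternatives, 561 stayed within the limits set for each, 214 moved and 18 turned. E2F4 and RNA Pol II, the shallower antibody libraries, limit what single bins show.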
